A study of Mus musculus with 9 samples.

Results

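The 47 genes described here code for collagens and a set of matrix glycoproteins, out of 32137 genes in the count files. They are the 39 genes whose name has the form of a collagen chain (Col, a number, a, a number) and 8 glycoprotein genes named singly: Fn1, Tnc, Tnxb, Sparc, Fbln1, Fbln2, Fbn1 and Sbspon. Tnxb and Sbspon were chosen by their expression differences between the groups of these same libraries, so their group differences are given as values with no test. Collagen chains are hydroxylated and assembled into a helical trimer in the endoplasmic reticulum, then secreted and laid down outside the cell. Fibrillar collagens build the fibres of connective tissue, type IV collagens form the network of the basement membrane on which duct epithelium rests, and FACIT collagens bind to the surface of fibrils. In the liver, fibrillar collagens are made mainly by stellate cells and portal fibroblasts rather than by duct cells.

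RNA was sequenced from 9 libraries of sorted cells of differentiated mouse bile duct organoids. Every library came from the same male mouse of mixed genetic background, with the genotype Axin2CreERT2+/-; R26-LSL-tdTom+/-. Axin2 drives a tamoxifen-dependent Cre in this mouse, and Cre switches on tdTomato. Expansion lasted 2 to 4 days and differentiation 11 days. In the last 24 h all groups, the untreated one included, received 3 uM dexamethasone and 500 nM 4-OHT, the active tamoxifen, and the treated ones also 100 ng/ml Rspo1, which raises Wnt signalling. The groups were tdTomato-negative cells without Rspo1 (untreated), tdTomato-negative cells with Rspo1 (Rspo1-negative) and tdTomato-positive cells with Rspo1 (Rspo1-positive), each with 3 libraries. Replicates 1, 2 and 3 are passages 5, 6 and 10 of the organoid line. tdTomato thus labels cells that used the Axin2 promoter while 4-OHT was present, and there was no group of tdTomato-positive cells without Rspo1. All libraries come from a single animal, so no p-value measures a spread between animals. In the main fit, group p-values measure the spread left after differences between passages are taken out. Passage p-values take the 3 sorted groups of a passage as replicates, so they measure no spread between repeat cultures of the same passage and treatment.

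Total counts ranged from 23423979 to 37351448 per library. A count of 0 allows up to 3 counts, which is 0.0739 to 0.127 CPM (each count over its library's TMM-scaled size), for counting error only. Axin2, the check of the labels, had 43, 52 and 207 counts in the untreated libraries and 1668 to 5521 counts in the Rspo1 libraries. It did not separate the gates: Axin2 was at 44.4, 97.4 and 124 CPM in the Rspo1-negative and 75.7, 88.7 and 155 CPM in the Rspo1-positive libraries, which overlap. The summed CPM of the 8 bile duct epithelial markers was 12887 to 15723 (untreated), 14231 to 17200.1 (Rspo1-negative) and 11742 to 11919 (Rspo1-positive). In Rspo1-positive against Rspo1-negative cells 4 of the 8 were called lower and none higher. Of all genes tested, 17.4% were lower and 21.5% higher there. Against untreated cells 2 were higher and 1 lower in Rspo1-positive cells (6.44% and 6.77% of all genes). In Rspo1-negative against untreated cells 1 was higher and none lower (15.5% and 20%). The 6 hepatocyte markers summed to 164 to 440.5 (untreated), 268 to 545 (Rspo1-negative) and 204 to 312 CPM (Rspo1-positive). Of the 3 tested, 2 were called lower in Rspo1-positive against Rspo1-negative cells (17.4% of all genes tested were). In Rspo1-positive against untreated cells 1 was called lower (6.77% of all genes). The part of these markers' cells in the group differences was not tested. The 8 fibroblast and stellate cell markers in the files summed to 0.185 to 0.345 CPM in the untreated, 0.212 to 0.329 in the Rspo1-negative and 0.084 to 0.169 in the Rspo1-positive libraries, none of them passed the filter on low counts, and Lum was at 0 in every library. The 5 endothelial markers summed to 0.288 to 0.812 CPM, with Cdh5 at 0 in every library. The 4 macrophage and leukocyte markers summed to 45.6 to 68.1 CPM, most of it from Csf1r. Of the 2 tested, 1 was called lower in Rspo1-positive against untreated cells (6.77% of all genes). In Rspo1-positive against Rspo1-negative cells 1 was called lower (17.4%). None was called in Rspo1-negative against untreated cells, where 15.5% of all genes were higher and 20% lower. The part of such cells in the group differences was not tested either.

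The matrix transcripts of these cells were few in kind. Fn1, the gene of fibronectin, had a mean of 174 FPKM (a read count scaled for gene length and library size) over the 9 libraries and made up 40.3% of the summed FPKM of the 47 genes. The basement membrane chains Col4a1 and Col4a2 followed with 71.3 and 61.7 FPKM. Col18a1, a multiplexin collagen of basement membranes, had 39.9 FPKM, and Fbln2, a fibulin that binds basement membrane and elastic fibre proteins, had 35.2 FPKM. These 5 genes together carried 88.3% of the sum. In all, 13 of the 47 genes had a mean of at least 1 FPKM, 10 lay between 0.1 and 1 FPKM and 24 lay under 0.1 FPKM. The second tier held Col27a1 (13.6 FPKM), Col16a1 (8.22 FPKM), Col4a5 (7.92 FPKM), Col14a1 (6.78 FPKM) and Sbspon (5.87 FPKM).

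The main collagens of connective tissue were at very low levels in these libraries. Col1a1 had 2 to 24 counts per library, Col1a2 at most 3 and Col3a1 at most 7, and Col24a1 had no count in any library. Col2a1, Col5a3 and Col11a1 had at most 9, 5 and 4 counts in any library. Fbn1, the microfibril gene fibrillin-1, had at most 6 counts. In all, 20 of the 47 genes did not pass the filter on low counts, and the highest count among them in any library was 12. The 27 that passed were 20 collagens and 7 glycoproteins, and 25 of these were tested, without Tnxb and Sbspon.

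**Figure D1:**
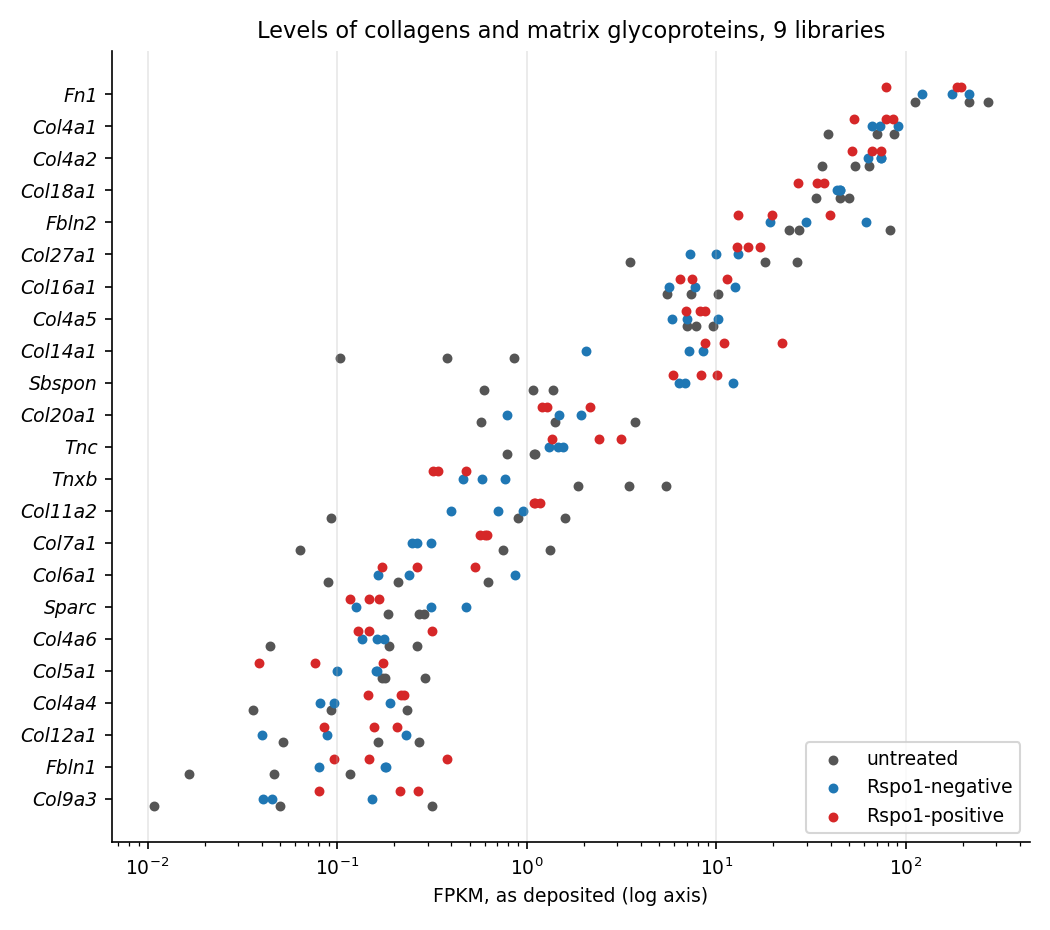
Deposited FPKM (log axis) of the collagens and matrix glycoproteins with a mean of at least 0.1 FPKM in each of the 9 libraries, with 3 points a group and grey, blue and red for untreated, Rspo1-negative and Rspo1-positive cells. Genes are ordered by mean level, from Fn1 at the top with 174 FPKM. Col14a1 and Sbspon have grey points well below the others, and Tnxb has grey points above the others.

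Of the 5 most abundant genes, Fn1 and Col4a1 were called in no group comparison, and Col4a2, Col18a1 and Fbln2 are described with their calls further on. Fn1 had 1818, 2292 and 947 CPM in the untreated libraries, 1401, 1794 and 1018 in the Rspo1-negative ones and 1641, 1548 and 668 in the Rspo1-positive ones, in passage order. The groups overlapped, and in each of them the passage 10 library was the lowest. Its log2 fold change was -0.40 (SE 0.18) in Rspo1-positive against untreated cells (adjusted p = 0.18 from the quasi-likelihood test of edgeR, Benjamini-Hochberg adjusted over all genes tested). Col4a1 had 473, 580 and 261 CPM in the untreated, 468, 599 and 441 in the Rspo1-negative and 524, 565 and 362 in the Rspo1-positive libraries. These ranges overlapped as well, again with passage 10 lowest in each group, and the log2 fold changes of Col4a1 in the 3 group comparisons lay between -0.08 and 0.26 with no call.

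Col4a1 and Col4a2 lie head to head on chromosome 8. In GENCODE M21 (GRCm38) their starts are 21 bases apart on opposite strands, and their first exons share 22 bases. The shared stretch is shown because both genes are transcribed away from it, and its overlap is where reads of one could be counted for the other. It is written on the plus strand from chr8:11312801-11312830, with the shared bases in capitals and 4 bases on either side, from RefSeq GRCm38.p6.
Col4a1 and Col4a2: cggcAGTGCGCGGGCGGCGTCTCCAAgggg
The 22 bases are 0.295% of the exon bases of Col4a1 and 0.332% of those of Col4a2. The ratio of Col4a1 to Col4a2 in FPKM stayed between 0.994 and 1.59 over the 9 libraries. It was 1.11, 1.59 and 1.08 in the untreated libraries, 0.994, 1.23 and 1.06 in the Rspo1-negative ones and 1.06, 1.29 and 1.03 in the Rspo1-positive ones. The passage 6 library had the highest ratio in each group.

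Col14a1 stood apart among the collagens. It codes for a FACIT collagen that binds fibrils through their decorin coat, and lies on chromosome 15 (55307750 to 55520803, plus strand, GRCm38). It had 0.677, 5.62 and 2.5 CPM in the untreated libraries, from 22, 168 and 87 counts. The Rspo1-negative libraries had 12.9, 55.3 and 46.6 CPM and the Rspo1-positive ones 56.8, 143 and 73.3 CPM. No 2 groups overlapped, and in all 3 passages the order was untreated, Rspo1-negative, Rspo1-positive. The group means were 2.93 ± 2.5, 38.3 ± 22.4 and 91.1 ± 45.9 CPM (SD, n = 3). The fold of Rspo1-positive over untreated cells was 83.8 at passage 5, 25.5 at passage 6 and 29.3 at passage 10.

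In the fit across all genes with passage as a block, Col14a1 rose by 5.18 on the log2 scale in Rspo1-positive over untreated cells (SE 0.32, adjusted p = 4.4e-06 by edgeR's quasi-likelihood test). In Rspo1-negative over untreated cells it rose by 3.79 (SE 0.31, adjusted p = 6.6e-05 by edgeR). Both calls held under all 13 alternatives (other scalings, another tool, no filter, no passage block, or 1 library left out), with values of 4.81 to 5.54 and 3.46 to 4.15. Between the Rspo1 groups it was higher in Rspo1-positive cells by 1.40 (SE 0.26, adjusted p = 0.00241 by edgeR), with folds of 4.41, 2.59 and 1.57 at passages 5, 6 and 10. Without the passage block that last value was 1.25 and was not called (adjusted p = 0.171 by edgeR). In this bulk RNA a higher share of expressing cells and more RNA per cell cannot be told apart.

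**Figure D2:**
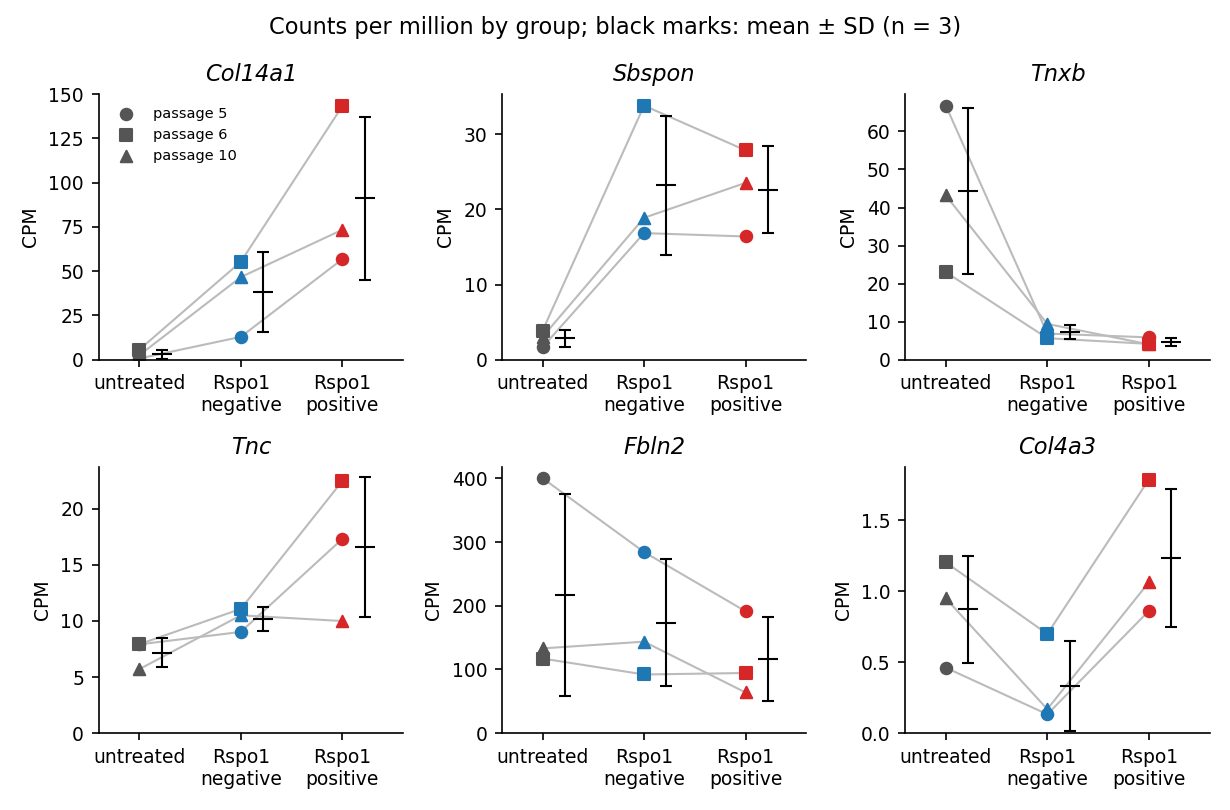
CPM, the scaled counts, of 6 genes in each library, by group on the x axis, with circles, squares and triangles for passages 5, 6 and 10 and grey lines joining libraries of the same passage. Black marks beside the points give mean ± SD (n = 3). Col14a1 climbs from untreated to Rspo1-positive cells in every passage, Sbspon is at like levels in both Rspo1 groups, Tnxb is high only in the untreated libraries plotted, and Col4a3 dips in the Rspo1-negative libraries.

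The set of 25 tested genes was compared first between Rspo1-positive and untreated cells, which differ in both treatment and sorting gate. Here 6 of the 25 were called (adjusted p under 0.05 by edgeR), against 13.2% of all genes tested. Col14a1, Tnc and Fbln1 were called higher (6.44% of all genes tested were), and Fbln2, Col5a1 and Col15a1 lower (6.77%). The median log2 fold change of the 25 genes was 0.13, beside -0.00 over all genes tested. Without the passage block 2 of the 25 were called, Col14a1 and Tnc, where 886 of all 17011 genes tested were.

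Tnc codes for tenascin-C, a large glycoprotein of remodelling tissue, and lies on chromosome 4 (63959785 to 64047015, minus strand, GRCm38). It had 7.91, 7.93 and 5.70 CPM in the untreated libraries, 9.02, 11.1 and 10.5 in the Rspo1-negative ones and 17.3, 22.5 and 9.99 in the Rspo1-positive ones. Each Rspo1 library was above each untreated one, while the Rspo1-positive library of passage 10 lay within the Rspo1-negative range. Tnc rose by 1.17 on the log2 scale in Rspo1-positive against untreated cells (SE 0.21, adjusted p = 0.00338 by edgeR), a 2.25-fold change that held under all 13 alternatives. Against Rspo1-negative cells it rose by 0.64 (SE 0.21, adjusted p = 0.0307 by edgeR). That second call was lost in 6 of 13 alternatives. It was lost under an offset that removes a smooth trend of the counts with GC content and gene length (0.41, adjusted p = 0.156), without the block (0.70, adjusted p = 0.0848), and without replicates 1 or 2 of either Rspo1 group (adjusted p up to 0.186). In Rspo1-negative against untreated cells its value was 0.53 (SE 0.21, adjusted p = 0.0709 by edgeR). Tnc shares 2.26% of its exon bases with the antisense gene 8030451A03Rik.

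The 250 bases before the start of Tnc and of Tnxb are given because these tenascin genes differed in opposite directions between Rspo1-positive and untreated cells. These groups differ in both treatment and gate, and Tnxb was not tested. They are from RefSeq (GRCm38.p6), read in the direction of transcription. The capitals mark TATAAA, 126 bases before the start of Tnc, and TGAGTCA, the reverse strand form of the AP-1 core TGACTCA, 55 bases before the start of Tnxb. Tnc is at chr4:64047016-64047265 on the minus strand and Tnxb at chr17:34670285-34670534 on the plus strand.
Tnc: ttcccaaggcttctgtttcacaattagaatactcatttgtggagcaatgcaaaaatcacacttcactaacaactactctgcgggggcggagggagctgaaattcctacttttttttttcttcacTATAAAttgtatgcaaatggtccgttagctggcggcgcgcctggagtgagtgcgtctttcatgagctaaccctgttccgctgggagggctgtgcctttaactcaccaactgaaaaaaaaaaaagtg
Tnxb: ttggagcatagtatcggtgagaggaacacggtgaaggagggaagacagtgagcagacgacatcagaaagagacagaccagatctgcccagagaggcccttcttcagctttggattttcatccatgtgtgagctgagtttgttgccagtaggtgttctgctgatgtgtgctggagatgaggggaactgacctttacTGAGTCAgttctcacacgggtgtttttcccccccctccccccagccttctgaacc
The TCF/LEF core, searched on both strands as AACAAAG and as the same letters led by AT, TA or TT in place of AA, was in neither window. Of the 47 genes, 37 matched a promoter sequence. The TCF/LEF core was in a window of 5 of these 37 genes (13.5%), Col15a1, Col20a1, Col28a1, Col6a2 and Col9a2, and in 14.8% of all 32851 windows. The shares of members count a gene with a match in any of its windows, while the others count windows, so they are unlike measures. TGACTCA on either strand was in 2 of 37 genes (5.41%) and in 4.46% of all windows. TATAAA on the forward strand was in 5 of 37 genes (13.5%) and in 7.59% of all windows. The AP-1 and TATA motifs were chosen after the sequences were seen. A match is a description of the letters and not a site.

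Tnxb codes for tenascin-X, a glycoprotein of the collagen network, and lies on chromosome 17 (34670535 to 34719815, plus strand, GRCm38). It had 66.8, 23.0 and 43.2 CPM in the untreated libraries, 6.87, 5.64 and 9.40 in the Rspo1-negative ones and 5.86, 4.15 and 4.03 in the Rspo1-positive ones. All 6 Rspo1 libraries were below all untreated ones, and the Rspo1 groups overlapped. Its log2 fold change was -3.16 in Rspo1-positive and -2.52 in Rspo1-negative against untreated cells, an 8.93-fold and a 5.73-fold lower level. These differences were why Tnxb was included, so no test is given. Within passages the Rspo1-positive level was 0.0877, 0.180 and 0.0933 of the untreated one at passages 5, 6 and 10.

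Sbspon, which codes for a secreted protein with somatomedin B and thrombospondin domains, went the other way. It had 1.66, 3.85 and 3.02 CPM in the untreated libraries, 16.8, 33.8 and 18.9 in the Rspo1-negative ones and 16.4, 27.9 and 23.5 in the Rspo1-positive ones. The untreated libraries were below all Rspo1 libraries and the Rspo1 groups overlapped. The log2 fold change against untreated cells was 3.02 in Rspo1-positive and 3.03 in Rspo1-negative cells, and -0.01 between them, with no test for the same reason. Sbspon (chromosome 1, 15853862 to 15892722, minus strand, GRCm38) shares 2001 exon bases with the antisense gene Gm37509, which is 72.8% of its exon bases. The strand setting of the counting is not given in the sources used here, so reads of this pair cannot be told apart. Gm37509 had 1.17, 2.27 and 1.47 CPM in the untreated libraries, 9.42, 15.9 and 10.1 in the Rspo1-negative ones and 10.4, 13.1 and 13.6 in the Rspo1-positive ones. The untreated libraries of Gm37509 were likewise below all its Rspo1 libraries, and its Rspo1 groups overlapped.

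The fibulins differed in level and direction. Fbln2 had 401, 117 and 133 CPM in the untreated libraries, 284, 92.2 and 144 in the Rspo1-negative ones and 191, 94.5 and 63.9 in the Rspo1-positive ones. The groups overlapped, and passage 5 was the highest library in each. Fbln2 fell by 0.79 on the log2 scale in Rspo1-positive against untreated cells (SE 0.20, adjusted p = 0.0219 by edgeR) and by 0.56 against Rspo1-negative cells (SE 0.20, adjusted p = 0.0434 by edgeR). Without the block neither was called (adjusted p = 0.471 and 0.483 by edgeR). The call against untreated cells was also lost without untreated replicate 1 (-0.65, adjusted p = 0.118), without Rspo1-positive replicate 1 (-0.72, adjusted p = 0.12) and without Rspo1-positive replicate 3 (-0.59, adjusted p = 0.131). The call against Rspo1-negative cells was lost under the offset for GC and length (-0.50, adjusted p = 0.0765) and without replicates 1 or 3 of either Rspo1 group (adjusted p from 0.092 to 0.257). Fbln1, another fibulin, had only 2 to 41 counts per library. Its log2 fold change against untreated cells was 1.73 in Rspo1-positive cells (SE 0.51, adjusted p = 0.046 by edgeR), and this call was lost in 9 of 13 alternatives, among them all 6 that left out 1 library (adjusted p from 0.0545 to 0.271).

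Col5a1 and Col15a1, both at low levels, were called lower in Rspo1-positive cells against untreated ones. Col5a1, a fibrillar chain that limits fibril width, had 2.46, 1.47 and 1.53 CPM in the untreated libraries, 1.30, 1.36 and 0.847 in the Rspo1-negative ones and 1.48, 0.641 and 0.336 in the Rspo1-positive ones. Only the passage 5 library of the Rspo1-positive group reached the untreated range. On the log2 scale it fell by 1.25 (SE 0.35, adjusted p = 0.0363 by edgeR). That call was lost without the block (adjusted p = 0.256), in the fit of only these 2 groups (0.0541), without untreated replicates 1 or 3 (0.10 and 0.113) and without Rspo1-positive replicates 2 or 3 (0.162 and 0.181). Col15a1, a multiplexin like Col18a1, had 6 to 25 counts per library. On the log2 scale it fell by 1.58 (SE 0.47, adjusted p = 0.0496 by edgeR) and was not called in 11 of 13 alternatives, among them all 6 fits that left out 1 library (adjusted p from 0.0871 to 0.268).

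**Figure D3:**
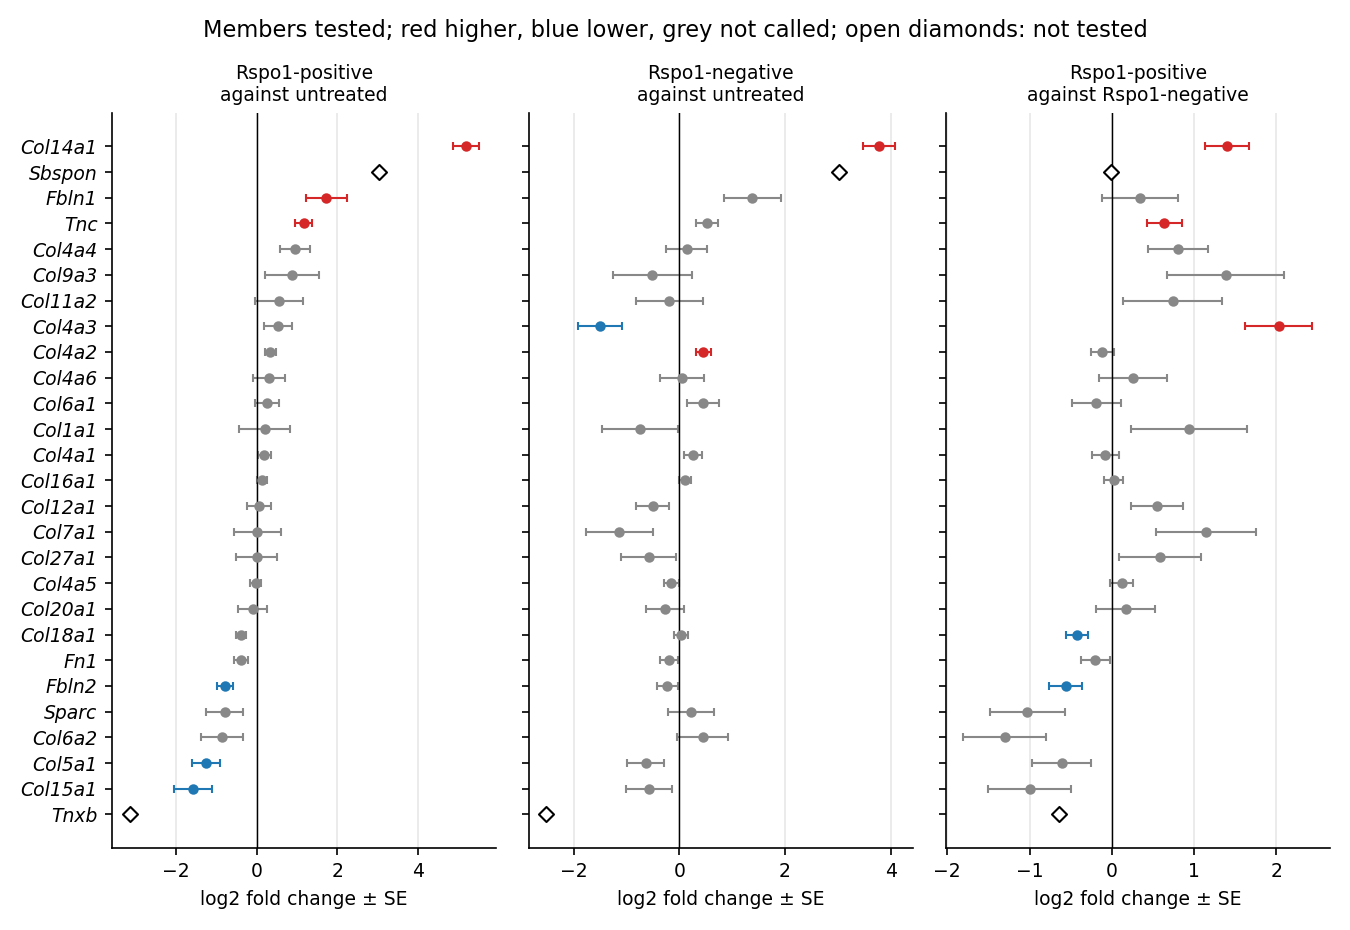
Log2 fold change ± SE of the 27 genes that passed the filter, in the 3 group comparisons, from the fit with passage as a block. Red and blue points were called higher and lower, grey points were not called, and open diamonds mark Tnxb and Sbspon, which were not tested. Col14a1 is called in all 3 panels, at 5.18, 3.79 and 1.40.

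Rspo1-negative and untreated cells share the tdTomato-negative gate and differ in treatment. That gate leaves out tdTomato-positive cells, whose share may differ with Rspo1. The treatment and the cells left in the gate thus cannot be told apart. Of the 25 genes 3 were called, against 35.5% of all genes tested: Col14a1 and Col4a2 higher (15.5% of all genes) and Col4a3 lower (20%). The median log2 fold change of the 25 genes was -0.15, beside -0.01 over all genes tested. Fold changes in the comparisons that involve the Rspo1-negative group varied with GC content across 17001 genes, with a rank correlation of 0.499 in this comparison and -0.506 in Rspo1-positive against Rspo1-negative cells, and of -0.0131 in Rspo1-positive against untreated cells. These correlations are across genes, which are not replicates. Col4a2 had 415, 355 and 235 CPM in the untreated libraries, 459, 476 and 407 in the Rspo1-negative ones and 481, 428 and 344 in the Rspo1-positive ones. Only untreated replicate 1 lay within the Rspo1-negative range, above replicate 3 of that group. Col4a2 rose by 0.45 on the log2 scale (SE 0.14, adjusted p = 0.0315 by edgeR), a 1.37-fold change, while Col4a1 had 0.26 (SE 0.16, adjusted p = 0.239). The call of Col4a2 was lost without the block (0.42, adjusted p = 0.183), in the fit of only these 2 groups (0.45, adjusted p = 0.0936), without untreated replicate 3 (0.32, adjusted p = 0.16) and without Rspo1-negative replicate 3 (0.36, adjusted p = 0.17).

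Col4a3 codes for a type IV chain found in few basement membranes, and its level was below 1 CPM on average. Its values in every library are given because it was called in both comparisons with the Rspo1-negative group, a choice made after they were seen. It had 15, 36 and 33 counts in the untreated libraries, 5, 17 and 4 in the Rspo1-negative ones and 35, 53 and 38 in the Rspo1-positive ones. Each Rspo1-negative library was below each Rspo1-positive one and below the untreated library of its passage. Col4a3 fell by 1.5 on the log2 scale in Rspo1-negative against untreated cells (SE 0.42, adjusted p = 0.0182 by edgeR). From Rspo1-negative to Rspo1-positive cells it rose by 2.03 (SE 0.41, adjusted p = 0.00345 by edgeR), a 4.07-fold change called in all 13 alternatives (1.69 to 2.62). The first of these calls was lost without the block (-1.42, adjusted p = 0.136), without untreated replicate 3 (adjusted p = 0.0814) and without Rspo1-negative replicates 1 or 3 (0.0895 and 0.0931). Under the offset for GC and length the values were -1.22 (adjusted p = 0.0457) and 1.69 (adjusted p = 0.00992). Col4a3 shares 5.65% of its exon bases with the antisense gene C430014B12Rik.

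Col4a3 and Col4a4 lie head to head on chromosome 1 with starts 72 bases apart, and their chains occur together in 1 trimer. The ratio of Col4a3 to Col4a4 in FPKM was 1.48, 0.591 and 1.18 in the untreated libraries, 0.197, 0.427 and 0.206 in the Rspo1-negative ones and 0.689, 0.964 and 0.535 in the Rspo1-positive ones. The Rspo1-negative ratios were the lowest of the 9. Col4a4 had 12 to 84 counts per library and was at 0.14 on the log2 scale for Rspo1-negative against untreated cells (SE 0.38, adjusted p = 0.811 by edgeR). Col4a5 and Col4a6, which are 1309 bases apart on chromosome X, were at unlike levels: Col4a5 was 27.7 to 158 times Col4a6 in FPKM.

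Rspo1-positive against Rspo1-negative cells compares the gates under the same treatment. Of the 25 genes 5 were called, against 38.9% of all genes tested, with Col14a1, Tnc and Col4a3 higher (21.5% of all genes) and Col18a1 and Fbln2 lower (17.4%). The median log2 fold change of the 25 genes was 0.17, beside 0.03 over all genes tested. Under the offset for GC and length 2 were called, Col14a1 (1.07, adjusted p = 0.012 by edgeR) and Col4a3, where 4002 of all 17011 genes tested were. Without the block 1 was called, Col4a3 (1.92, adjusted p = 0.049 by edgeR), where 4141 of all 17011 genes tested were. In a fit of only the 6 libraries of these groups, 10 of 24 were called, where 7826 of all 16562 genes tested in that fit were.

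Col18a1, whose C-terminal fragment is endostatin, had 255, 285 and 190 CPM in the untreated libraries, 243, 250 and 245 in the Rspo1-negative ones and 192, 207 and 155 in the Rspo1-positive ones. Every Rspo1-positive library was below every Rspo1-negative one, and the untreated range overlapped both. Col18a1 fell by 0.43 on the log2 scale between the Rspo1 groups (SE 0.13, adjusted p = 0.0264 by edgeR), to 0.743 of the Rspo1-negative level. This call was lost without the block (-0.41, adjusted p = 0.10), under the offset for GC and length (-0.42, adjusted p = 0.0595) and when any of the 6 libraries but Rspo1-negative replicate 2 was left out (adjusted p from 0.0636 to 0.161). Against untreated cells the value in Rspo1-positive cells was -0.39 (SE 0.13, adjusted p = 0.0828 by edgeR).

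The fibrillar chain genes Col27a1 and Col11a2 and the anchoring fibril gene Col7a1 shared a low library. Col27a1 had 139, 27.3 and 206 CPM in the untreated libraries, Col11a2 had 5.48, 0.569 and 9.81 and Col7a1 had 6.99, 0.602 and 12.4. For each of the 3 genes untreated replicate 2, the passage 6 library, was the lowest of the 9 libraries. Among the other genes tested, it was also the lowest for Col20a1, Col4a6 and Col9a3. In the Rspo1-negative libraries Col27a1 had 53.6, 99.6 and 76.0 CPM and in the Rspo1-positive ones 113, 129 and 100.2, so the Rspo1 groups did not overlap. The same held for Col11a2 (2.34, 5.76 and 4.28 against 6.62, 6.71 and 7.30 CPM) and Col7a1 (2.21, 2.88 and 2.46 against 5.29, 5.57 and 5.88 CPM). None of the 3 was called in the fit of all 9 libraries, with log2 fold changes between the Rspo1 groups of 0.58, 0.74 and 1.14 (adjusted p = 0.377, 0.356 and 0.162 by edgeR).

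Without untreated replicate 2 the untreated comparisons of these genes changed. This fit is shown because that library was their lowest, so its adjusted p-values are no support for a difference. In that fit 7427 of all 17463 genes tested were called in Rspo1-negative against untreated cells. In Rspo1-positive against untreated cells 2178 were called. In Rspo1-negative against untreated cells Col27a1 then had -1.34 (adjusted p = 0.000138 by edgeR), Col7a1 -1.94 (adjusted p = 8.1e-05) and Col11a2 -1.03 (adjusted p = 0.0067), and the FACIT gene Col20a1 had -0.79 (adjusted p = 0.0109). In Rspo1-positive against untreated cells Col27a1 then had -0.72 (adjusted p = 0.0112 by edgeR) and Col7a1 -0.79 (adjusted p = 0.0208), in place of -0.00 and 0.01 with the library. In the authors' deposited table of Rspo1-positive against Rspo1-negative cells, Col27a1, Col11a2 and Col7a1 were listed with log2 fold changes of 0.59, 0.80 and 1.14 and adjusted p of 0.00045, 0.0082 and 9.3e-05.

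The authors' deposited tables held 15 of the 47 genes, 13 without Tnxb and Sbspon. Of these 13, their adjusted p was under 0.05 for 6 in Rspo1-positive against untreated cells, against 13.9% of all genes listed. It was so for 2 in Rspo1-negative against untreated cells, against 27.0%, and for 7 in Rspo1-positive against Rspo1-negative cells, against 44.1%. Col14a1 was at 5.28, 3.89 and 1.37 on the log2 scale in the same order in the authors' deposited tables. The comparisons with untreated cells share the untreated libraries, so their values for a gene are not independent.

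Passage was the other axis along which these genes differed. Each group was sampled once at each passage of the line, so the values compare 3 single passages. Between passages 6 and 5, 4 of the 25 genes were called, against 2.49% of all genes tested: Col14a1 and Col16a1 higher (1.16% of all genes), Fbln2 and Col6a1 lower (1.33%). Between passages 10 and 5, 7 were called, against 9.07%: Col14a1 and Col4a5 higher (4.57% of all genes), and Fn1, Fbln2, Col6a1, Col6a2 and Col12a1 lower (4.5%). The median log2 fold change of the 25 genes was 0.13 and 0.39 in these comparisons, beside 0.00 and 0.01 over all genes tested.

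Col16a1, a FACIT collagen of many tissues, followed passage more closely than group. It had 29.1, 53.7 and 38.8 CPM at passages 5, 6 and 10 of the untreated group, 28.5, 65.1 and 40.5 of the Rspo1-negative group and 33.6, 59.2 and 39.7 of the Rspo1-positive group. In each group passage 6 was the highest and passage 5 the lowest. Its log2 fold change of passage 6 over passage 5 was 0.96 (SE 0.12, adjusted p = 0.00236 by edgeR), called in all 14 alternatives, while the group differences lay between 0.02 and 0.13 with no call.

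Fbln2 was lower at passage 6 by 1.45 (SE 0.20, adjusted p = 0.00434) and at passage 10 by 1.37 (SE 0.20, adjusted p = 0.00282, both by edgeR) than at passage 5 on the log2 scale, called in all 14 alternatives each. Fn1 fell by 0.90 at passage 10 (SE 0.18, adjusted p = 0.0119 by edgeR). That call was lost without replicates 1 or 3 of the untreated and of the Rspo1-positive group (adjusted p from 0.0543 to 0.0803). The type VI collagen genes Col6a1 and Col6a2, neighbours on chromosome 10, had the largest falls of the 25 genes at passage 10. Col6a1 had 84, 130 and 90 counts at passage 5 in the untreated, Rspo1-negative and Rspo1-positive groups, 26, 24 and 32 at passage 6 and 13, 16 and 26 at passage 10. It was lower in each group at each later passage, and fell by 2.22 on the log2 scale at passage 10 (SE 0.30, adjusted p = 0.00208 by edgeR), called in all 14 alternatives. Its value at passage 6 was -1.48 (SE 0.29, adjusted p = 0.0246 by edgeR), and that call was lost without untreated replicate 1, Rspo1-negative replicates 1 or 2 or Rspo1-positive replicate 2 (adjusted p from 0.0774 to 0.181).

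Col6a2 had -2.83 at passage 10 (SE 0.55, adjusted p = 0.0112 by edgeR), from 1 to 34 counts per library, and lost its call without untreated replicate 1 or Rspo1-negative replicates 1 or 3 (adjusted p from 0.0566 to 0.0671). Col14a1 was higher at passage 6 by 1.93 (SE 0.28, adjusted p = 0.00645 by edgeR) and at passage 10 by 1.19 (SE 0.28, adjusted p = 0.0267). Its passage 6 call was lost without Rspo1-negative replicate 1 (1.69, adjusted p = 0.0672), and its passage 10 call without replicates 1 or 3 of the untreated or the Rspo1-negative group (adjusted p from 0.0589 to 0.208). Col4a5 rose by 0.51 at passage 10 (SE 0.14, adjusted p = 0.0417 by edgeR), a call lost in 7 of 9 fits that left out 1 library, all but those without untreated or Rspo1-negative replicate 2 (adjusted p from 0.0563 to 0.247). Col12a1 had -1.16 (SE 0.32, adjusted p = 0.0491 by edgeR), lost in 6 of 9 such fits, all but those without replicate 2 of a group (adjusted p from 0.057 to 0.213).

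Cd68, a gene of macrophages that other cells also express, fell at the same passages, by 1.24 at passage 6 and 1.39 at passage 10 on the log2 scale (adjusted p = 0.0038 and 0.00108 by edgeR). Csf1r had values of -0.01 and 0.36 with no call (adjusted p = 0.978 and 0.0715). Of the 3 hepatocyte markers tested, 2 fell at passage 10, with Ttr at -0.99 and Apoa1 at -1.69 (adjusted p = 0.0103 and 0.0483 by edgeR), while Alb had 0.52 (adjusted p = 0.188). At passage 10, 4.5% of all genes tested were called lower. The part of such cells in the passage differences of Fbln2, Fn1, Col6a1 and Col6a2 was not tested.

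**Figure D4:**
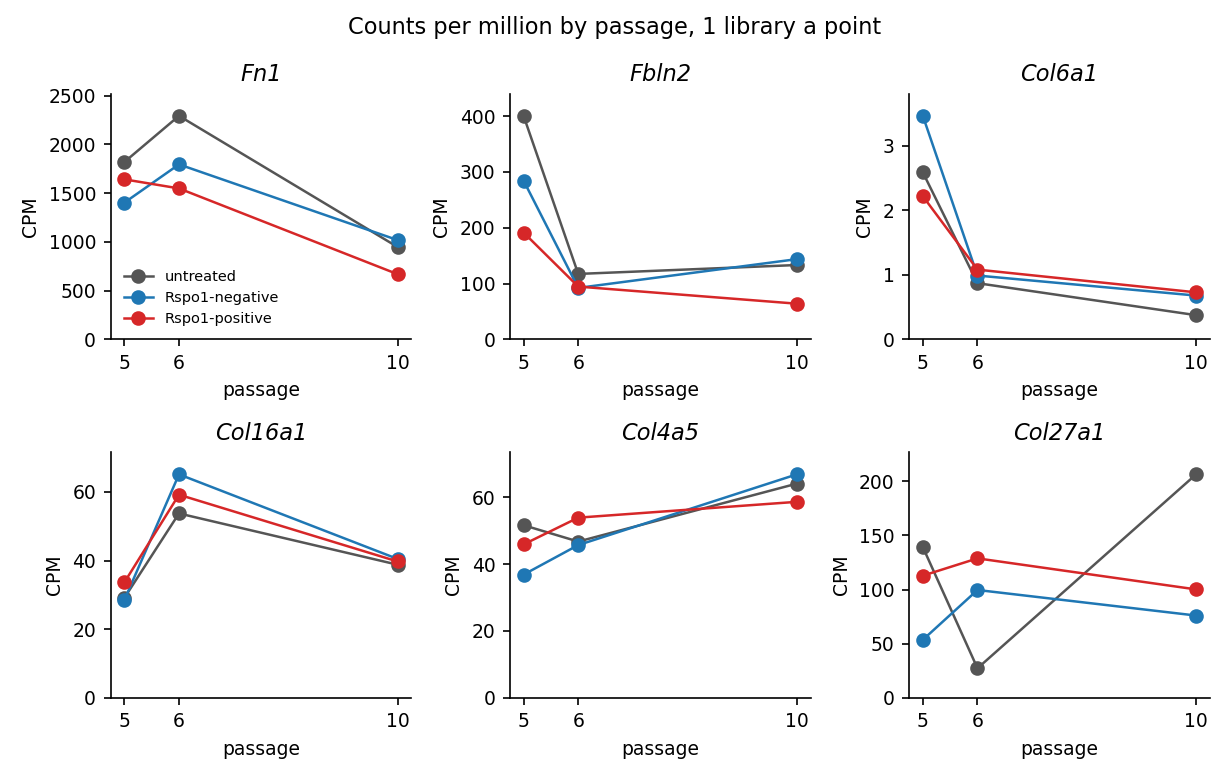
CPM, the scaled counts, of 6 genes against passage (5, 6 and 10, to scale), 1 library a point, with grey, blue and red lines for untreated, Rspo1-negative and Rspo1-positive cells. Fbln2 and Col6a1 are highest at passage 5 in every group and Col16a1 is highest at passage 6 in every group. Col27a1 shows the low untreated library of passage 6, at 27.3 CPM.

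Genes of collagen synthesis and secretion were called in all 3 group comparisons. The list held 20 genes, of which 19 were tested. In Rspo1-positive against Rspo1-negative cells 11 were lower and 1 higher, where 17.4% of all genes tested were lower and 21.5% higher. The median log2 fold change of the list was -0.53 there, beside 0.03 over all genes tested. In Rspo1-positive against untreated cells 5 were lower and none higher (median -0.22), where 6.77% of all genes were lower and 6.44% higher. In Rspo1-negative against untreated cells 7 were higher and 4 lower (median 0.18), where 15.5% of all genes were higher and 20% lower. P4ha2, a subunit of the prolyl 4-hydroxylase that stabilises the collagen helix, had 315, 211 and 180 CPM in the untreated libraries, 302, 242 and 238 in the Rspo1-negative ones and 183, 125 and 125 in the Rspo1-positive ones. Only Rspo1-positive replicate 1 reached the range of either other group. P4ha2 fell by 0.87 between the Rspo1 groups (SE 0.13, adjusted p = 0.00068 by edgeR), called in all 13 alternatives. Plod1, a lysyl hydroxylase of collagen, fell by 0.94 in the same comparison (SE 0.16, adjusted p = 0.00164) and by 0.88 against untreated cells (SE 0.16, adjusted p = 0.0043, both by edgeR). P4ha1, another catalytic subunit listed, fell by 0.75 against untreated cells (SE 0.12, adjusted p = 0.0022 by edgeR).

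Mia3, whose product TANGO1 loads collagen into carriers at the endoplasmic reticulum, was the 1 gene of the list called higher in the positive than the negative gate under Rspo1. It had 103, 91.7 and 96.4 CPM in the untreated libraries, 55.9, 62.9 and 44.4 in the Rspo1-negative ones and 111, 96.5 and 99.5 in the Rspo1-positive ones. The Rspo1-negative libraries were below all others and the other groups overlapped. Mia3 fell by 0.84 on the log2 scale in Rspo1-negative against untreated cells (SE 0.13, adjusted p = 0.00087) and rose by 0.92 from Rspo1-negative to Rspo1-positive cells (SE 0.13, adjusted p = 0.00062, both by edgeR), in all 13 alternatives each. P3h2, a prolyl 3-hydroxylase, fell by 0.83 in Rspo1-negative against untreated cells (SE 0.19, adjusted p = 0.0077 by edgeR), a call lost without Rspo1-negative replicate 1 (-0.72, adjusted p = 0.0641). P3h3 had 0.67 in that comparison (SE 0.20, adjusted p = 0.0254 by edgeR), a call lost in 6 of 13 alternatives. It was lost under the offset for GC and length (0.30, adjusted p = 0.312) and without the block (0.67, adjusted p = 0.0784). It was also lost without untreated replicates 1 or 3 and without Rspo1-negative replicates 2 or 3.

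These list counts depended on the model. Under the offset for GC and length the list had 7 lower and 1 higher in Rspo1-positive against Rspo1-negative cells, 5 lower in Rspo1-positive against untreated cells, and 2 lower with none higher in Rspo1-negative against untreated cells. In these comparisons the calls among all 17011 genes tested went from 6624, 2247 and 6039 to 4002, 2751 and 3550. Without the block the counts were 6 lower and 1 higher, none in either direction, and 1 higher and 3 lower in the same order. Among all genes tested 4141, 886 and 3724 were then called. Plod1 and P4ha1 were among those not called without the block (adjusted p = 0.0712 for Plod1 between the Rspo1 groups, and 0.168 and 0.403 for Plod1 and P4ha1 against untreated cells, by edgeR).

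**Figure D5:**
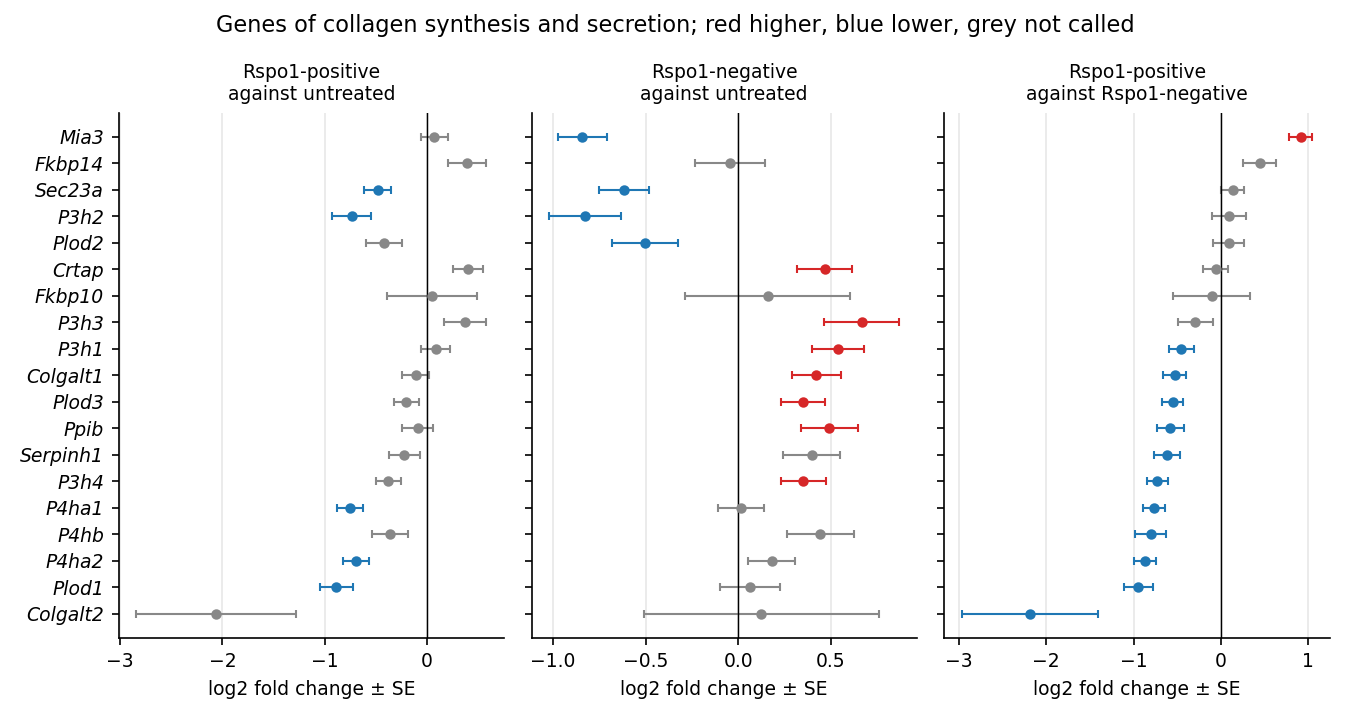
Log2 fold change ± SE of the 19 tested genes of collagen synthesis and secretion in the 3 group comparisons, with red and blue for genes called higher and lower and grey for genes not called. In the right panel 11 genes are blue and Mia3 alone is red, and in the middle panel 7 are red and 4 blue.

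Of the 14 genes of collagen processing and crosslinking, 10 were tested. In Rspo1-positive against untreated cells none was called, against 13.2% of all genes tested. Between the Rspo1 groups 1 was lower and none higher (17.4% and 21.5% of all genes). In Rspo1-negative against untreated cells 2 were higher and none lower (15.5% and 20%). Loxl3, a lysyl oxidase, rose by 0.66 in Rspo1-negative against untreated cells (SE 0.14, adjusted p = 0.0053 by edgeR), and was not called without the block (0.67, adjusted p = 0.0672). Bmp1, the procollagen C-proteinase, was the other of 2 higher there (0.39, adjusted p = 0.027 by edgeR) and the 1 lower in Rspo1-positive against Rspo1-negative cells (-0.34, adjusted p = 0.0456). Both Bmp1 calls were lost in 7 of 13 alternatives, the offset for GC and length among them. Ddr1, the collagen receptor of epithelia, had -0.49 in Rspo1-positive against Rspo1-negative cells (SE 0.14, adjusted p = 0.0181 by edgeR). That call was lost in 5 of 13 alternatives. It was lost under the offset for GC and length (-0.28, adjusted p = 0.168), and without Rspo1-negative replicate 3 or any Rspo1-positive replicate.

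Among the proteases and inhibitors, 10 of 20 genes were tested. In Rspo1-positive against untreated cells 1 was higher and 1 lower (6.44% and 6.77% of all genes tested). Between the Rspo1 groups 3 were lower and none higher (17.4% and 21.5%). In Rspo1-negative against untreated cells 4 were higher and none lower, where 15.5% of all genes tested were higher and 20% lower. Mmp7, an epithelial protease and the most abundant gene of the list, had 2628, 3725 and 2209 CPM in the untreated libraries, 5583, 5103 and 4794 in the Rspo1-negative ones and 3657, 3706 and 3613 in the Rspo1-positive ones. The Rspo1-negative libraries were above all others. Mmp7 rose by 0.88 there (SE 0.19, adjusted p = 0.0052 by edgeR), called in all 13 alternatives. Timp1, an inhibitor of these proteases, rose by 1.09 in Rspo1-negative (SE 0.21, adjusted p = 0.00265) and by 1.07 in Rspo1-positive cells (SE 0.20, adjusted p = 0.0055, both by edgeR) against untreated ones. It lost both calls without the block (adjusted p = 0.0558 and 0.129). Mmp15 fell by 0.64 in Rspo1-positive against untreated cells (SE 0.13, adjusted p = 0.0063 by edgeR), a call that went when Rspo1-positive replicate 2 was left out (-0.58, adjusted p = 0.0630).

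The list of elastic fibre and matricellular partners held 31 genes, of which 18 were tested and Eln, Thbs2 and Mfap5 were at 0 in every library. In Rspo1-positive against untreated cells 3 were higher and 6 lower, where 6.44% of all genes tested were higher and 6.77% lower. In Rspo1-negative against untreated cells 4 were higher and 3 lower (15.5% and 20% of all genes). Between the Rspo1 groups 2 were higher and 4 lower (21.5% and 17.4%). Ltbp1, which anchors latent TGF-beta in the matrix, had 47.3, 30.4 and 26.2 CPM in the untreated libraries, 11.3, 9.59 and 6.10 in the Rspo1-negative ones and 15.3, 7.66 and 4.45 in the Rspo1-positive ones. All untreated libraries were above all Rspo1 libraries. Ltbp1 fell by 2.03 in Rspo1-positive (SE 0.19, adjusted p = 4.5e-05) and by 1.95 in Rspo1-negative cells (SE 0.19, adjusted p = 0.000146, both by edgeR) against untreated ones, in all 13 alternatives each. Thbs1, thrombospondin-1, had 110, 110 and 97.5 CPM in the untreated libraries, 128, 186 and 199 in the Rspo1-negative ones and 240, 320 and 278 in the Rspo1-positive ones, with no overlap between groups. It rose by 1.39 in Rspo1-positive against untreated cells (SE 0.15, adjusted p = 0.00013 by edgeR), in all 13 alternatives.

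Ltbp2 rose by 1.97 in Rspo1-positive against untreated cells (SE 0.33, adjusted p = 0.0024 by edgeR), and without the block it was not called (2.06, adjusted p = 0.117). In Rspo1-negative against untreated cells Ltbp4 rose by 0.80 (SE 0.14, adjusted p = 0.00145 by edgeR), in all 13 alternatives. Between the Rspo1 groups the matricellular gene Smoc1 fell by 1.0 (SE 0.15, adjusted p = 0.00074) and Efemp2, a fibulin that guides elastin crosslinking, by 0.88 (SE 0.13, adjusted p = 0.00075, both by edgeR), in all 13 alternatives each. Ecm1, the most abundant gene of the list, fell by 0.75 there (SE 0.17, adjusted p = 0.0056 by edgeR), and by 0.41 under the offset for GC and length (adjusted p = 0.121).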

How the data were processed

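RNA sequencing was measured in 9 libraries of sorted organoid cells. Raw counts and FPKM values per gene were deposited by the authors for each library, per the file headers. The submitters' processing notes name Trimmomatic 0.35, FastQC 0.11.2, STAR 2.5.1b, featureCounts, DESeq2 and the build GRCm38. The annotation release and strand setting are not given in the sources used here. The deposited FPKM followed a size factor within 0.647%, not the total count (gap up to 17.1%), over 6681 genes, and were used for levels between genes and their plot by library, with no test. Log2 fold changes and adjusted p-values were also deposited in the authors' tables, per the file headers.

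Counts were analysed with edgeR 4.0.16 in R 4.3.3: filterByExpr (minimum count 10, minimum total 15), TMM scaling, glmQLFit with group and passage on all 9 libraries, and glmQLFTest with Benjamini-Hochberg adjustment over 17011 genes. A gene was called at an adjusted p under 0.05. The SE is the log2 fold change over the square root of F. Same-passage libraries deviated from their group means together (r 0.123 to 0.573 in 9 pairs), those of different passages did not (-0.476 to 0.0826 in 18 pairs), and the labels state the passages. Taking out group means makes different-passage correlations lower where same-passage ones are higher, so these ranges are not independent. Replicates of a group differed by a chi-square of 57.5 to 528 per gene. On simulated data for Rspo1-positive against untreated cells (16715 genes), 91% of 100 genes changed 2-fold and 100% of 100 changed 4-fold were recovered, and 0.0666% of unchanged genes were called. The changed genes were drawn from those with a mean above 1 CPM, and no trend with GC content was simulated. The recovery thus does not cover genes below that level, such as Fbln1, Col15a1, Col4a3 and Col6a2.

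The members and gene lists were chosen with earlier results of these data known. All members could be named. Values by library were given to members called in a group comparison at 1 CPM or more, to Tnxb, Sbspon and Gm37509 and to the 5 most abundant. Those of Col4a3, Col27a1, Col11a2, Col7a1, Col16a1 and Col6a1 fall outside this rule and were added after they were seen. From each pathway list and group comparison, up to 3 called genes with the largest change at 1 CPM or more could be named. Alternatives were no block, upper-quartile and RLE scaling, DESeq2 1.42.0, no filter, only the 2 groups compared, a GC and length offset with the block, and leaving out each library. The same alternatives for the pathway lists were added after the data were seen. Positions are from GENCODE M21, and sequences from RefSeq, in which 10 members had no promoter entry: Col12a1, Col14a1, Col1a1, Col22a1, Col26a1, Col2a1, Col4a3, Col9a3, Fn1 and Sbspon.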

Additional observations from a re-analysis of the deposited data

Results flagged for a closer look

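For 5 genes the level under Rspo1 differed between the reporter gates by edgeR's quasi-likelihood test. With no tdTomato-positive cells without Rspo1, this is a difference between gates and not one in the response to Rspo1. The log2 differences were 2.03 for Col4a3 (higher in 3 of 3 passages), 1.40 for Col14a1 (3 of 3) and 0.64 for Tnc (2 of 3). They were -0.43 for Col18a1 (lower in 3 of 3 passages) and -0.56 for Fbln2 (lower in 2 of 3). Of all genes tested, 38.9% passed the same test.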

How the results depend on the processing

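Of 25 calls among the members over 5 comparisons, 8 were kept in every alternative: Col14a1 and Tnc in Rspo1-positive and Col14a1 in Rspo1-negative against untreated cells, Col4a3 between the Rspo1 groups, Col16a1 and Fbln2 at passage 6, and Col6a1 and Fbln2 at passage 10. Over 336 alternatives of these calls 249 kept the call, 87 lost it and none turned the sign, and 29 alternatives called a group difference that was not called. Col7a1 in Rspo1-positive against untreated cells turned from 0.01 to -0.79 without untreated replicate 2, and leaving out other libraries gave values up to 0.82. In Rspo1-positive against untreated cells the 6 calls became 2 with no replicate block and 3 with only the 2 groups. Calls among all genes tested went from 2247 to 886 and 1900 in these fits. In Rspo1-negative against untreated cells the 3 calls became 1 with no replicate block and 7 with no filter on low counts, where 44 members entered. Calls among all genes tested went from 6039 to 3724 and 6612. Between the Rspo1 groups the 5 calls became 1 with no replicate block, 2 under the offset for GC and length, 9 with no filter and 10 with only the 2 groups. Calls among all genes tested went from 6624 to 4141, 4002, 6996 and 7826 in the same order. For passage 10 the 7 calls became 13 with no filter, where calls among all genes tested went from 1543 to 2784. Leaving out 1 library gave 2 to 7, 1 to 7, 2 to 5, 2 to 4 and 2 to 13 calls in the order Rspo1-positive against untreated, Rspo1-negative against untreated, Rspo1-positive against Rspo1-negative, passage 6 and passage 10. Among all genes tested it gave 1112 to 2178, 3229 to 7427, 3674 to 7029, 105 to 846 and 405 to 3594 calls in that order. The cause of these changes was not tested. Upper-quartile scaling raised the share of higher calls among all genes in Rspo1-negative against untreated cells from 43.8% to 54.2%, and no scaling moved the median of all genes by over 0.1. The fit with only the 2 groups and the fit with no replicate block have no value for the passages. Depth limits the genes with few counts, Fbln1, Col15a1, Col4a3 and Col6a2 among those called. Without 1 library an arm has 2 samples.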
